A study of Mus musculus with 7 samples.

Results

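The genes of the cytosolic ribosomal proteins were located relative to lamin-associated domains (LADs) in mouse embryonic fibroblasts. Members were the protein-coding genes of the RefSeq table for GRCm38.p6 (the build also called mm10) whose symbol is Rpl or Rps followed by a digit, without the Rps6k kinases. This gave 87 genes, out of 21887 protein-coding genes with a placed position. Of these 87, 73 encode the core proteins of the ribosome, 43 of the large and 30 of the small subunit. The other 14 are paralogs, retroposed copies and Rps19bp1, which is named for binding Rps19 and is not a ribosomal protein.

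The study profiled fibroblast lines named iMEF, derived independently from a single mouse colony, by CUT&RUN, in which an antibody tethers a nuclease that releases the DNA around its target. Of its 7 libraries, 2 targeted Lamin B1, a main protein of the lamina, 2 used control IgG, 2 targeted H3K9me2 with a different antibody each and 1 targeted H3K14ac. No treatment or genetic change is given in the labels, and the term wild type comes from the title of the deposited list alone. Values here come from 1 list of 1437 domains, merged by the authors, so the read depth behind a domain is unknown and no gene has a replicate error or a test. With positions alone, the fibroblast label could not be checked against marker genes.

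LADs are long stretches of chromatin held at the nuclear lamina, the protein meshwork under the nuclear envelope, and are known for low transcription and repressive histone methylation. Ribosomal proteins assemble with ribosomal RNA in the nucleolus into the small subunit, which decodes mRNA, and the large subunit, which joins amino acids. Their genes are short and among the most highly transcribed of dividing cells. Many left processed pseudogenes, copies of the mRNA inserted elsewhere in the genome.

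None of the 73 core genes lay in a LAD. The midpoint of the gene was inside for 3 of the 87 members (3.45%), against 23.8% of all protein-coding genes, and all 3 were copies outside the core: Rps27rt, Rpl39l and Rpl10l. Each of the 3 lay in its LAD over its whole length, and no other member touched one. Whole genes lay inside LADs in 21.8% of all protein-coding genes, and 25.1% overlapped one. The share of the 14 members outside the core, 3 of 14 (21.4%), was near that background. Weighting the shares of the chromosomes by the number of members on each gave a background of 23.6%, with single chromosomes that carry members between 6.77% (chromosome 11) and 37.4% (chromosome 7).

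Sequences around the start sites of 4 members are shown because the first pair tells how the copy in a LAD relates to its parent outside, and the other 2 are the core genes with a table entry that lie nearest to and farthest from a border. Each runs from 70 bases before the annotated start to base 30 of the annotated transcript, from RefSeq (GRCm38.p6). For Rps27rt (chr9:114982710-114982809, minus strand) and Rps27 (chr3:90213619-90213718, minus strand), capitals mark bases of the longest run that both share. For Rps15a (chr7:118116118-118116217, minus strand) and Rpl27 (chr11:101442175-101442274, plus strand), capitals mark the longest run of C and T that reaches within 5 bases of the start on either side. The run of Rps15a spans the start, and that of Rpl27 ends upstream of it.
Rps27rt: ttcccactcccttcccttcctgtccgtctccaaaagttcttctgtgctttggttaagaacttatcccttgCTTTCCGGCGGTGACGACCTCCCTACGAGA
Rps27: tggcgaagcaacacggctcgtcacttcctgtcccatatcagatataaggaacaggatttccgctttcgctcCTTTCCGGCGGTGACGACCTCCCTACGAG
Rps15a: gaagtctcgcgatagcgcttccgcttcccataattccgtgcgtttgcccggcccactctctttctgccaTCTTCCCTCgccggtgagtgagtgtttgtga
Rpl27: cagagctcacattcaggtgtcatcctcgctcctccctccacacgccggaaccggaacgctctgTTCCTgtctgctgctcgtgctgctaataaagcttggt

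Rps27rt shared an unbroken run of 38 bases with Rps27, from its base 1 to base 38, which is base 2 to base 39 of Rps27. The run therefore began at the annotated start of Rps27rt, and the bases upstream of that start were not part of it. Among the 9 copies for which the table holds both starts, the longest shared run was 7 to 12 bases in the other 8. Those of Rpl39l with Rpl39 and of Rpl10l with Rpl10 were 8 bases each.

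The 3 copies in LADs differed in how deep they lay. Rps27rt (chromosome 9, 114982366 to 114982739) is a retroposed copy of Rps27, a zinc-binding protein of the small subunit, and lies within the bounds of Osbpl10. Its midpoint was 11.3 kb inside a LAD of 262.5 kb (114971221 to 115233720), a region cut by several short gaps, and with LADs of at least 500 kb alone it was outside. Rpl39l (chromosome 16, 10170197 to 10174911) is an autosomal paralog, expressed in male germ cells, of the X-linked Rpl39, a protein at the exit tunnel of the large subunit. It lay 67.1 kb inside the end of a LAD of 1.29 Mb (8947140 to 10239635). Rpl10l (chromosome 12, 66283379 to 66284401) is the copy of the X-linked Rpl10 that serves in male meiosis, when X is silenced. It lay 1091 kb from the nearest border of a LAD of 3.90 Mb (65192538 to 69097525), with 100% of the bases within 1 Mb in LADs and no other protein-coding midpoint within 250 kb.

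The parents of these copies were all outside. Rps27 (chromosome 3, 90212667 to 90213648) was 535 kb from the nearest border, Rpl39 (chromosome X, 37082518 to 37085222) 1312 kb and Rpl10 (chromosome X, 74270816 to 74273135) 1965 kb. For both X-linked parents, no base within 1 Mb was in a LAD. All 4 members on X were outside, although 35.8% of the protein-coding genes of X were inside. Rpl36a was 435 kb from a border and Rps4x, a protein of the small subunit with a place on both sex chromosomes in humans, 1981 kb. None of the 87 members is on Y.

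**Figure D1:**
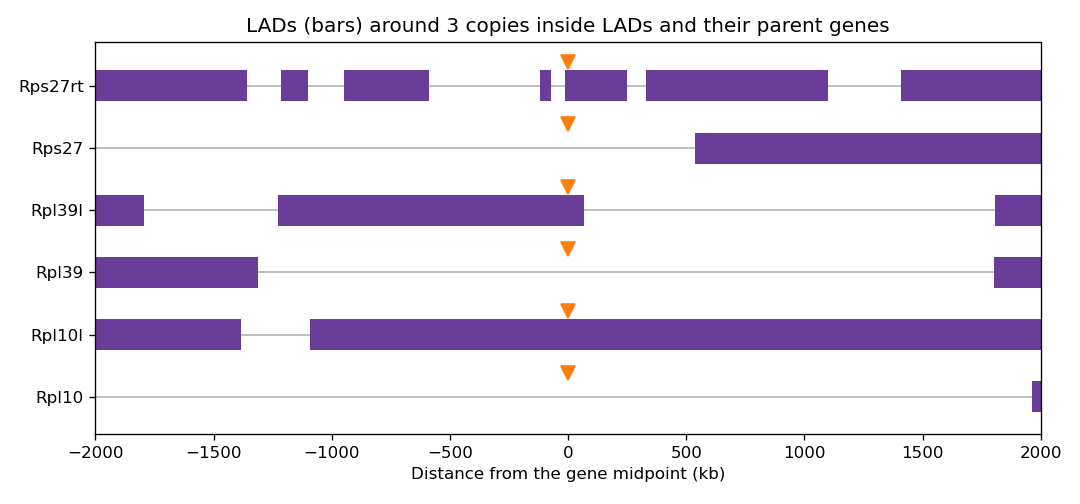
LADs (purple bars) within 2000 kb of the midpoint of 3 copies and their parents, with distance from the midpoint in kb on the horizontal axis and the gene at the orange triangle. Rps27rt, Rpl39l and Rpl10l lie under a bar, while Rps27, Rpl39 and Rpl10 are 535, 1312 and 1965 kb from the nearest one.

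Core genes of the large subunit lay at distances from 36.7 to 7026 kb outside the nearest border, with a median of 1363 kb and quartiles of 306 and 3204 kb. Those of the small subunit ranged from 35.5 to 4099 kb, with a median of 794 kb and quartiles of 261 and 1827 kb. The groups overlap, with 7 of the 43 large subunit genes beyond the farthest small subunit gene, and the difference of the medians was not tested. Beyond 2 Mb there were 15 of the 43 large subunit genes and 6 of the 30 small subunit genes.

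The members outside LADs were about as far from a border as other genes outside. Their median was 838 kb (n = 84, quartiles 264 and 2163 kb), and that of all protein-coding genes outside was 796 kb (n = 16680, quartiles 262 and 1826 kb). Farther than 1 Mb from a border were 40 of the 84 members outside (47.6%), against 43.3% of all protein-coding genes outside (33.0% of those inside and outside together). Within 100 kb of a border were 11 of the 84 (13.1%), against 12.3% (9.35% of those inside and outside together). The share inside LADs was thus lower than the background, while the distances outside ran over much the same range.

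**Figure D2:**
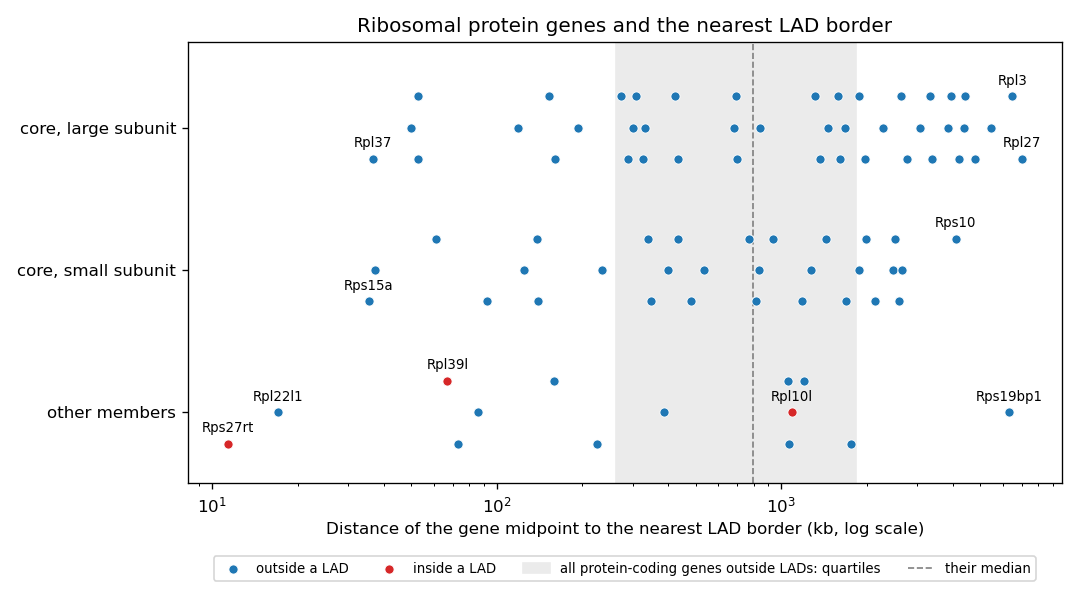
Distance of each of the 87 gene midpoints to the nearest LAD border in kb on a log axis, in 3 rows for core large subunit, core small subunit and other members (height within a row has no meaning). Red points are inside a LAD, and the grey band and dashed line give the quartiles and the median of all protein-coding genes outside LADs. All 3 red points are in the row of other members.

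**Figure D3:**
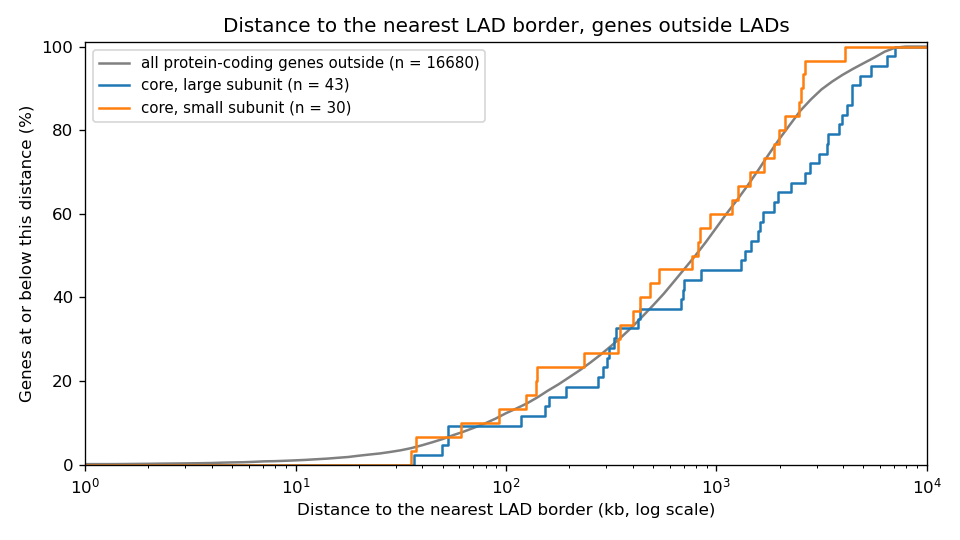
Cumulative share (%) of genes outside LADs by distance to the nearest border in kb on a log axis, for 43 large subunit genes, 30 small subunit genes and all 16680 protein-coding genes outside. The small subunit curve stays near that of all genes, and the large subunit curve runs to the right of it above about 500 kb.

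Some core genes came close to a border. Rps15a (chromosome 7, 118104374 to 118116147), of the small subunit, was the nearest, at 35.5 kb from its midpoint and 29.6 kb from its nearer end, in a gap of 505 kb between LADs. Rpl37 (chromosome 15, 5116613 to 5119140) followed with 36.7 kb and Rps9 (chromosome 7, 3703954 to 3706897) with 37.2 kb. Rps9 lies before the first LAD of its chromosome, near the centromere. Rpl38 (chromosome 11, 114667818 to 114672333), whose loss causes the Tail-short skeletal phenotype in mice, was at 49.8 kb, past the last LAD of its chromosome. Rpl7 and Rpl34 were both at 52.9 kb, and Rps29 at 60.9 kb. Each of these distances is more than 10 times the 2.5 kb step of the borders, so the step does not decide on which side these genes lie. The accuracy of the borders beyond that step is unknown.

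Short gaps held some of these genes. Rpl7 lay in a gap of 300.0 kb with 3 protein-coding genes, and Rps6, the target of the S6 kinases, lay in one of 425 kb with 6. Of the bases within 1 Mb, 77.0% were in LADs for Rps7, 74.8% for Rps13 and 73.6% for Rps6. These genes were outside LADs in neighbourhoods mostly made of them. The member nearest to a border on the outside was no core gene: Rpl22l1 (chromosome 3, 28805508 to 28807424), the paralog of Rpl22, was 17.1 kb away, in the shortest gap with a member, 150.0 kb. Rpl22, which is needed in T cell development, was 194 kb from a border.

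At the other end, Rpl27 (chromosome 11, 101442245 to 101445596) was the farthest member, at 7026 kb. Rpl3 (chromosome 15, 80077781 to 80083406), a protein that reaches to the centre where peptide bonds form, was at 6480 kb, and Rps19bp1 in the same gap was at 6298 kb. Next came Rpl13 (5442 kb), Rpl10a (4796 kb), Rpl8 (4409 kb), Rpl11 (4393 kb) and Rpl19 (4196 kb). Rpl11 and Rpl5 form a particle with 5S RNA that binds Mdm2, and Rpl5 was much nearer to a border, at 845 kb. Of the 8 farthest members, 7 are core genes of the large subunit, and the farthest of the small subunit was Rps10 at 4099 kb.

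The remaining copies were outside. Rpl3l, the paralog of Rpl3 in heart and skeletal muscle, was 1198 kb from a border, Rps27l, a target of p53, 1067 kb, and Rpl7l1 1763 kb. Rpl37rt lay at 1055 kb, Rpl34-ps1 at 388 kb, Rpl32l at 225 kb and Rps23rg1 at 159 kb. Rpl36al, the autosomal copy of the X-linked Rpl36a, was 85.9 kb away and Rpl31-ps12 72.8 kb. Of the copies of X-linked parents, Rpl10l and Rpl39l were thus inside LADs and Rpl36al was not. Rpl32l and Rpl31-ps12 lie within the bounds of other genes, Map7 and Spag6l.

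The 87 members fell into 71 regions: 3 LADs, 65 gaps and 3 chromosome ends. Of the 1416 gaps, 4.59% held a member, and the median length of these was 3802 kb, against 240.0 kb for all gaps. A longer gap holds more genes of any kind: the median protein-coding gene in a gap lay in one of 3960 kb, and the median member in one of 4107 kb. Some gaps held several members. On chromosome 17, 6 members shared a gap of 12.9 Mb (23534014 to 36468973) with 421 protein-coding genes: Rps2, Rpl3l, Rps10, Rpl10a, Rps28 and Rps18. Rpl23, Rpl19 and Rpl27 shared a gap of 14.6 Mb on chromosome 11 (93830377 to 108470330), and Rpl8, Rpl3 and Rps19bp1 one of 14.1 Mb on chromosome 15 (72495953 to 86560907). Chromosome 7 had the most members, 13, none of them in a LAD, although 37.4% of its protein-coding genes were inside.

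LAD cover was lowest at the core genes and higher with distance from them. In the 25 kb bins on either side of the midpoint, 0% of the bases lay in LADs, against 23.8% for all protein-coding genes. In the bin 975 to 1000 kb below the midpoint it was 27.0%, against 36.0%. No LAD reached within 250 kb of 57 of the 73 core genes (78.1%) or of 63 of the 87 members (72.4%), against 57.7% of all protein-coding genes. The median LAD cover within 1 Mb was 4.38% for core genes and 22.5% for all.

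**Figure D4:**
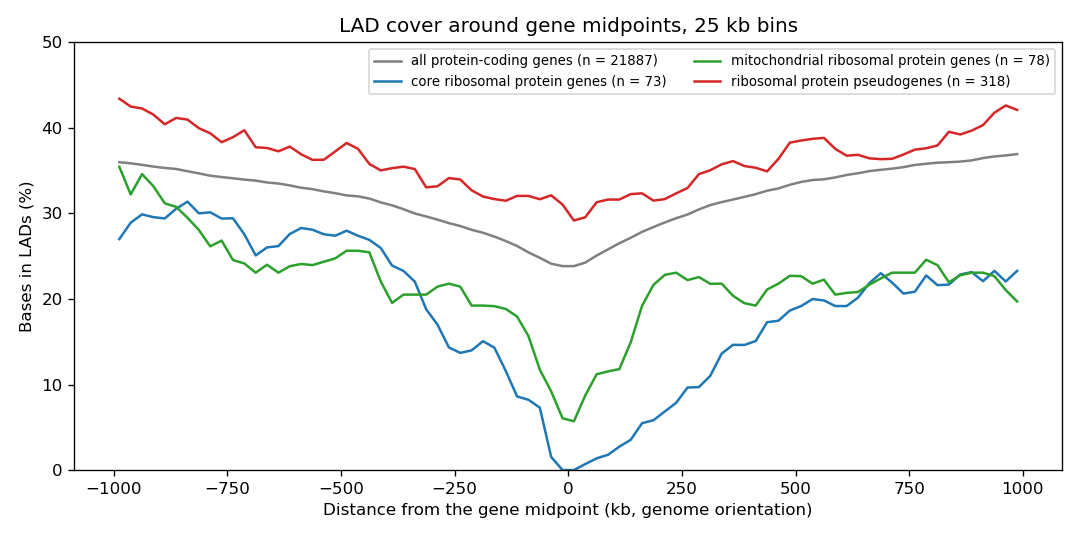
Percent of bases in LADs (vertical axis) in 25 kb bins by distance from the gene midpoint in kb, for core ribosomal protein genes, mitochondrial ribosomal protein genes, ribosomal protein pseudogenes and all protein-coding genes. The core gene curve falls to 0% at the midpoint, where that of all protein-coding genes is at 23.8% and that of the pseudogenes near 30%.

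Gene density and gene length, which go with the position of LADs, were set beside these counts. Core genes had a median of 11 other protein-coding genes within 250 kb, and all protein-coding genes had 8. Among genes with 5 to 9 such neighbours, 1 of 29 members was inside, against 19.4% of the 6253 other genes. With 10 to 19 neighbours it was 0 of 26 members against 19.7% of others, and with 20 or more 0 of 17 against 18.1%. With at most 4 neighbours, 2 of 15 members were inside, Rpl39l and Rpl10l, against 35.1% of others. Outside LADs, members with at most 4 neighbours lay a median of 225 kb from a border and others 426 kb. For 5 to 9 the medians were 411 and 733 kb. For 10 to 19 they were 1184 and 1023 kb, and for 20 or more 1462 and 1078 kb. Members were thus nearer than others with up to 9 neighbours and farther with 10 or more, and these differences were not tested. The median length was 3.16 kb for members and 17.2 kb for all protein-coding genes. Among genes under 5 kb, 3 of 71 members were inside, against 41.7% of 4963 others. Of those others, 1256 are olfactory or vomeronasal receptor genes, and without these 25.7% of 3707 were inside. Over genes of any length, leaving out these receptors gave 19.1% of protein-coding genes inside. The part of density and length in the members' positions was not tested.

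Other genes of the ribosome and of protein synthesis and breakdown were examined as lists. A list of 7 further cytosolic genes, all outside, included the proteins of the stalk (Rplp0, Rplp1, Rplp2), Rpsa, Fau, a fusion to a ubiquitin-like protein, and Rack1, a scaffold on the small subunit. The nearest was Rack1, 70.3 kb from a border, and the farthest Rplp1, at 6100.0 kb. All 36 genes of ribosome biogenesis and all 51 proteasome genes were outside as well. Of 59 translation factor genes, 2 were inside: Eif4a3l1, a copy of Eif4a3, and Eif2s3y, on Y. Eif3f overlapped a LAD with its midpoint 0.896 kb outside.

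Mitochondrial ribosomal proteins, which build the separate ribosome of mitochondria, had 4 of 78 genes inside (5.13%). With LADs widened by 25 kb it was 8 (10.3%), and with LADs at most 250 kb apart joined 10 (12.8%). Of all protein-coding genes, 25.8% and 27.3% were inside under these settings. The 4 were Mrpl50, Mrps22, Mrpl3 and Mrps30, at 796, 359, 298 and 984 kb from the nearest border of their LAD. They are parts of the mitochondrial ribosome and not copies by name, in contrast to the 3 cytosolic members inside. The median distance of those outside was 836 kb, next to 838 kb for the cytosolic members. The difference between the lists was not tested.

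**Figure D5:**
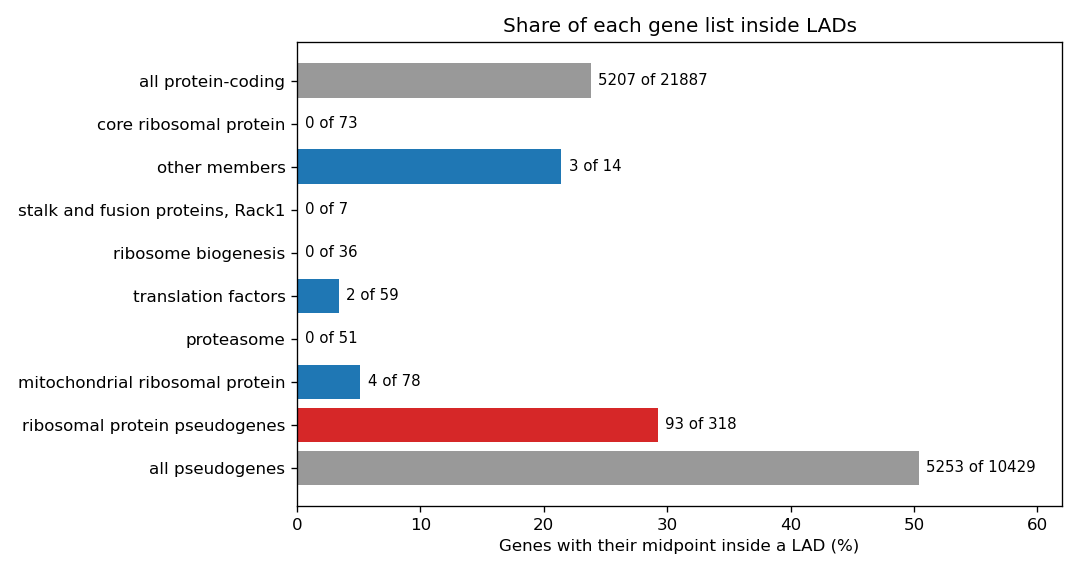
Percent of the genes of each list with their midpoint inside a LAD, with the number inside and the size of the list at each bar. Core ribosomal protein, biogenesis and proteasome genes have no bar (0 of 73, 0 of 36 and 0 of 51), and ribosomal protein pseudogenes reach 29.2%, between all protein-coding genes (23.8%) and all pseudogenes (50.4%).

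Pseudogenes named after ribosomal proteins were found in LADs. Of 318, 93 (29.2%) had their midpoint inside, against 50.4% of all 10429 pseudogenes. With the olfactory and vomeronasal pseudogenes and those of ribosomal proteins left out, it was 48.7% of 9504, and 55.0% of the 735 of these that carry the suffix -ps, both sets chosen after the values were seen. The pseudogenes stem from 65 parents by name, of which 35 had at least 1 copy inside. Those of the 58 core parents were inside in 87 of 300 cases (29.0%), while all their parent genes were outside. Rpl31 and Rps12 had the most pseudogenes, 23 each with 7 inside. All 7 of Rps12 lay in a local cluster of 13 on X (123284984 to 125987385), which held both LADs and gaps. For Rpl23a it was 8 of 13, of which 6 lay side by side in 1 LAD on chromosome 7 (31603280 to 33697783). Without these 2 clusters (at least 3 copies of 1 parent, each within 2.5 Mb of the next, a rule set after seeing the data), 80 of 299 pseudogenes were inside (26.8%). For Rpl7a it was 9 of 14, for Rpl19 6 of 12 and for Rpl30 1 of 10. Pseudogenes that have only a serial name were not assigned to a parent, so the counts cover named copies only.

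Many ribosomal protein genes carry small nucleolar RNAs (snoRNAs), guides for the modification of ribosomal RNA, in their introns. Of the 87 members, 28 spanned at least 1 annotated snoRNA gene, 55 in all, or 4.10% of the 1340 in the table. All 28 are core genes and all 55 snoRNA genes lay outside LADs with them, where 46.3% of all snoRNA genes were inside. Rpl4 spanned 5, and Rpl7a and Rpl13a 4 each. The entries of Rpl13a were Snord32a, Snord33, Snord34 and Snord35a. This restates where the host genes lie and adds no independent position.

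The promoter table held 67 of the 87 members and 54 of the 73 core genes, 1 start for each gene (the one nearest the gene's 5′ end). The base at the annotated start was C in 19 of the 54 core genes (35.2%), against 13.7% of 17492 protein-coding genes. The starts were annotated and not measured here, so the first base of the transcripts in these cells may differ. A run of at least 8 C or T that reached within 5 bases of the start on either side was present in 18 (33.3%), against 9.26%. The sequence CTTTCC between 10 bases before and base 15 occurred in 8 (14.8%), against 1.02%, and CTTCC in 9 (16.7%), against 6.03%. In the 300-base window on either strand, CCGGAAG, the core of sites for ETS factors, occurred in 21 (38.9%), against 11.9%. Its reverse complement contains CTTCC, so these counts overlap in part. AGATGGC, from the site of YY1, occurred in 7 (13.0%), against 6.16%. TATAAA between 35 and 16 bases before the start occurred in 0 of 54, against 2.64%. The core promoters held a median of 21 CG dinucleotides, against 13. Of the copies in LADs, Rps27rt had 9, Rpl10l 13 and Rpl39l 17, and their parents Rps27, Rpl10 and Rpl39 had 22, 17 and 17. Copies outside LADs ranged more widely, from 2 (Rpl3l) to 42 (Rpl36al).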

How the data were processed

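CUT&RUN libraries were made for Lamin B1, IgG, H3K9me2 and H3K14ac. The authors deposited 1 merged list of domain starts and ends in base pairs, read here as the pooled Lamin B1 result because of its name. Bowtie2 and mm10 are named in the submitters' processing notes. The domain caller, its thresholds and the use of IgG or spike-in DNA are not given in the sources used here. The score was 0 in all 1437 lines. Lengths of all domains (100%) were multiples of 2.5 kb to within 125 bp, which gives the step of the borders and not their accuracy. The smallest gap was 52.5 kb, and whether shorter gaps were closed is not given. H3K9me2, H3K14ac and IgG were not analysed here.

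Gene positions, counted from 1, and promoter sequences came from RefSeq tables of GRCm38.p6. A gene was inside a LAD if its midpoint was, and its distance was that from the midpoint to the nearest border. Genes before the first or after the last LAD of a chromosome were kept as outside. The scripts (Python 3.11.15, pandas 2.3.3, numpy 2.4.6) were tested on simulated domains. No test was made: counts and medians stand beside those of all protein-coding genes. Members, lists, motifs and the rule for named genes (members in or overlapping a LAD, the 8 nearest and the 8 farthest outside, those on X or Y, those outside the core, those sharing a gap with at least 2 others, and list genes inside a LAD) were chosen with earlier results of these data known. Other genes named, such as those with the highest LAD cover, were chosen after their values were seen. The planned comparison of paralog proteins was not run, since no protein sequences were used here. Some members and list genes enter the counts and are not reported here by name.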

Additional observations from a re-analysis of the deposited data

How the results depend on the processing

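Of 49 recomputed values, 43 stayed within the 95% interval of the main value (exact Clopper-Pearson for shares, exact binomial order statistics for the median). The 3 members inside LADs were Rps27rt, Rpl39l and Rpl10l under 9 of 13 alternatives. With LADs of at least 500 kb, Rps27rt was left out (2.30%). With LADs at most 250 kb apart joined, or widened by 25 kb, Rpl22l1 was added (4.60%). Counting core members alone gave 0%. No core gene was inside under any of the 13. The median distance moved from 838 to 1460 kb with LADs of at least 500 kb, as fewer borders remain, and that of all protein-coding genes outside was then 1202 kb. Joining at 250 kb brought mitochondrial ribosomal protein genes to 12.8% (10.3% with widening by 25 kb) and ribosomal protein pseudogenes to 34.9%. A minimum of 500 kb gave 23.9% of these pseudogenes and widening by 25 kb gave 35.8%. Of all protein-coding genes, 27.3% were inside with joining at 250 kb, 25.8% with widening by 25 kb and 20.7% with the 500 kb minimum. The share of all pseudogenes was not recomputed. These alternatives add or remove LAD bases by construction. No paired analysis was possible because the only values are those of 1 merged list, and the planned runs without 1 of the Lamin B1 replicates could not be made either. The read depth is unknown, so how many short LADs or gaps near these genes a deeper library would keep is unknown.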
